A study of Mus musculus with 133 samples.

Results

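Mammary tumours were split by their level of Cwc22, a gene on chromosome 2 whose RNA fell into 2 separate ranges, and 61 Cwc22 high tumours were set against 62 Cwc22 low tumours. They came from a series of 133 arrays, all but 2 of different mice. Left out were 6 arrays with a label ending in the letter r, which the labels leave without explanation, and 4 animals (14094, 14095, 14312 and 14320). Titles began with a running number (47 of the tumours used, called numbered here) or with a name (76 tumours, called named). Tumours were chosen by the measured Cwc22 level, which was centred within each of these title forms, with values above 0 called high and values below 0 low. The high group held 22 numbered and 39 named tumours and the low group 25 and 37.

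All animals in both groups were untreated female offspring of Diversity Outbred females (Generation 5) and males with the MMTV-PyMT transgene, so that every animal carried the same driver on its own mixture of founder alleles. The MMTV promoter drives the polyoma middle T antigen mainly in mammary epithelium, and tumours were collected near the humane endpoint. Neither the age of each animal nor the gland that was arrayed is given in the sources used here, and genotypes were not used. The array read whole tumours, so that for any gene a smaller share of a cell type and less RNA per cell cannot be told apart.

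Cwc22 is a protein of the spliceosome. It binds Eif4a3 and brings it to the spliced RNA, where Eif4a3 becomes the core of the exon junction complex, the mark that splicing leaves upstream of exon joints and that nonsense-mediated decay later reads. In mice, Cwc22 lies in the R2d segment, whose copy number differs between strains and is raised in WSB/EiJ, a founder of the Diversity Outbred stock. Copy number was not measured here.

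The tissue label was borne out by epithelial markers at similar levels in both groups. Krt8, a keratin of luminal epithelium, had a median log2 level of 12.07 in Cwc22 high tumours and 12.20 in Cwc22 low tumours. The adhesion molecule Epcam had medians of 11.27 and 11.30.

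Of the 8 probesets that name Cwc22 alone, 7 held identical values, which set the groups, and 1 held other values. The level that set the groups is a description and was not tested. It had a lowest value of 10.08, a median of 10.91 and a highest value of 11.67 in high tumours, against 7.78, 8.32 and 8.99 in low tumours, on the log2 scale. The means were 10.91 (SD 0.311, n = 61) in high tumours and 8.33 (SD 0.241, n = 62) in low tumours. The lowest high tumour stood 1.09 above the highest low tumour, and no tumour lay in the range between. Over all tumours the means differed by 2.58, or 6.00-fold, with 2.58 in numbered and 2.59 in named titles.

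After centring, the high tumours ran from 0.436 to 2.03 and the low tumours from -1.87 to -0.629. The 3 high tumours nearest to the cut had centred values of 0.436, 0.630 and 0.693, and the 3 nearest low tumours had -0.629, -0.657 and -0.727. No tumour lay within 0.25 of the cut.

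The other Cwc22 probeset measures the same gene and was not tested either. It ran from 7.78 over a median of 8.58 to 9.44 in high tumours and from 6.44 over 6.91 to 7.66 in low tumours. Its groups did not overlap, with a gap of 0.124. Over all tumours its means of 8.59 in high and 6.95 in low tumours lay 1.64 apart, or 3.12-fold. The means differed by 1.52 in numbered and 1.72 in named titles. Within the groups it followed the first probeset with r = 0.819 over the 61 high tumours and r = 0.396 over the 62 low tumours.

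**Figure D1:**
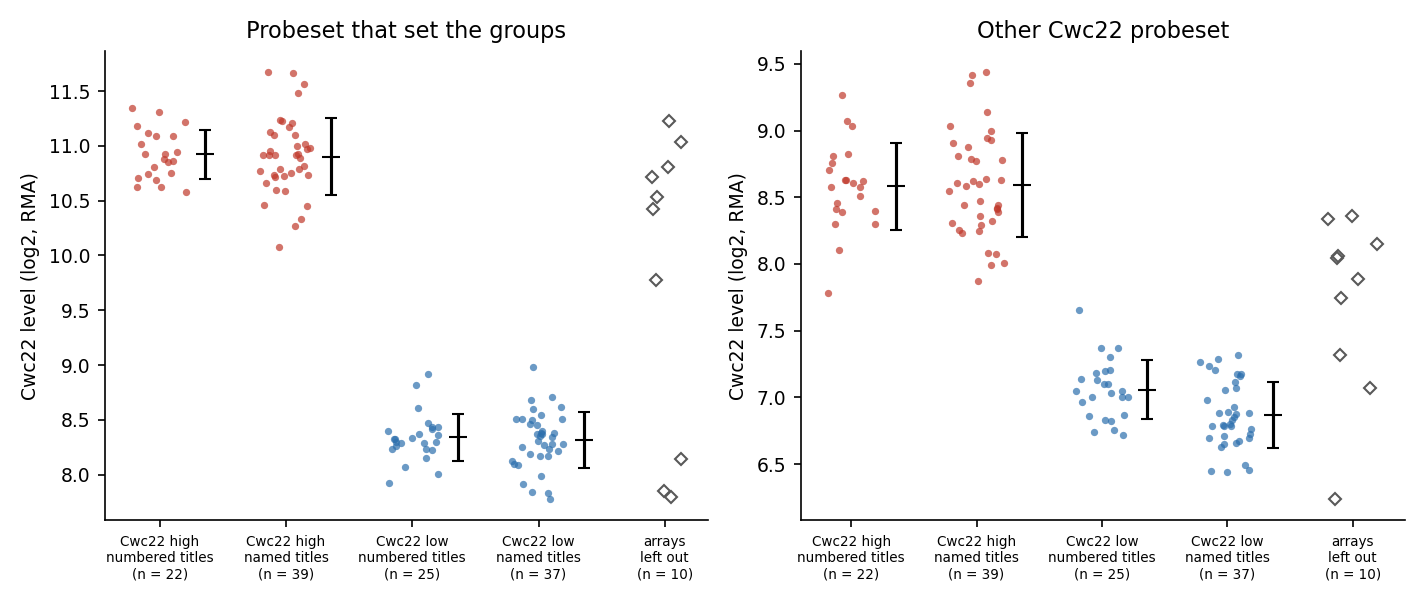
Level of Cwc22 (log2, RMA) in each tumour for the probeset that set the groups (left) and for the other Cwc22 probeset (right), by group and title form, with the mean and SD beside the points and the 10 arrays left out as open diamonds. The left panel shows 2 ranges with no tumour between 8.99 and 10.08, and the left-out array of animal 14312 lies between them at 9.77.

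Of the arrays left out, all but that of animal 14312 fell inside one of the 2 ranges. Animals 14050 and 14352 also had an array without the suffix, and their suffix arrays read 10.71 and 11.23 against 10.98 and 11.67 on the other array. The other 4 suffix arrays read 11.04, 10.81 and 10.42 on the high side and 8.15 on the low side. Animals 14095 (10.53), 14094 (7.85) and 14320 (7.80) also lay inside a range, but the other Cwc22 probeset did not always give the same side. In animal 14320 that probeset read 7.89, inside its high range. The suffix array at 10.42 (animal 14252) read 7.32 on it, inside its low range, the one at 10.81 (animal 14253) read 7.74, between its ranges, and the one at 8.15 (animal 14022) read 6.24, below its low range. Animal 14312 lay between the ranges at 9.77, and its other Cwc22 probeset read 8.06, inside the high range.

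The comparison asked which genes other than Cwc22 differ between these groups. Few did. Of 19937 genes tested with limma, with title form as a covariate, 3 differed at an adjusted p under 0.05 (0.0150%). Of these, 2 were higher in Cwc22 high tumours (0.0100%) and 1 was lower (0.00502%). All 3 lie on chromosome 2, the chromosome of Cwc22. Each differed by at most 0.20 on the log2 scale, far less than Cwc22 itself, whose level set the groups. At an unadjusted p under 0.05 there were 828 genes (4.15%), and at an unadjusted p under 0.001 there were 19 (0.0953%).

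Agbl2, a carboxypeptidase that trims glutamates from tubulin tails, was higher in Cwc22 high tumours. Its log2 level ran from 4.29 over a median of 4.65 to 5.24 in high tumours and from 4.18 over 4.42 to 4.92 in low tumours. These levels are low, since the array median over named probesets had a median of 6.62 in each group. A filter on mean levels under 5 removed Agbl2. With the title forms pooled the groups overlapped, and 7 of the high tumours lay above every low tumour. The difference within title forms was 0.20 (SE 0.03, 95% interval 0.136 to 0.256, 1.15-fold), with an adjusted p of 4.21e-05. It was 0.24 in named titles (adjusted p = 0.000639) and 0.12 in numbered titles (adjusted p = 1.00, unadjusted p = 0.0102).

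Ddb2, which recognises ultraviolet damage in DNA for nucleotide excision repair, was lower in Cwc22 high tumours. Its log2 level ran from 5.75 over a median of 6.14 to 6.58 in high tumours and from 5.90 over 6.31 to 6.80 in low tumours. Low tumours had a mean of 6.51 in numbered and 6.21 in named titles. With the title forms pooled, no group lay fully apart, since the range of each covered most of the other. The difference was -0.17 (SE 0.03, 95% interval -0.229 to -0.112), with an adjusted p of 0.00053. In numbered titles it was -0.22 (adjusted p = 0.314) and in named titles -0.14 (adjusted p = 0.996), so that neither title form alone passed the threshold.

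Metap1d, a mitochondrial methionine aminopeptidase, was higher in Cwc22 high tumours. It ran from 6.80 over a median of 7.03 to 7.56 in high tumours and from 6.43 over 6.91 to 7.30 in low tumours. With the title forms pooled, 25 low tumours lay below every high tumour. The difference was 0.18 (SE 0.04, 95% interval 0.103 to 0.249), with an adjusted p of 0.0337. It was 0.23 in named titles (adjusted p = 0.0231) and 0.08 in numbered titles (unadjusted p = 0.174). The call was lost with the array median as a covariate (adjusted p = 0.0668), with the groups cut at the median (adjusted p = 0.11) and with the left-out animals added (adjusted p = 0.271). The cut at the median put low tumour 14125 with the high tumours and high tumour 14001 with the low tumours.

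**Figure D2:**
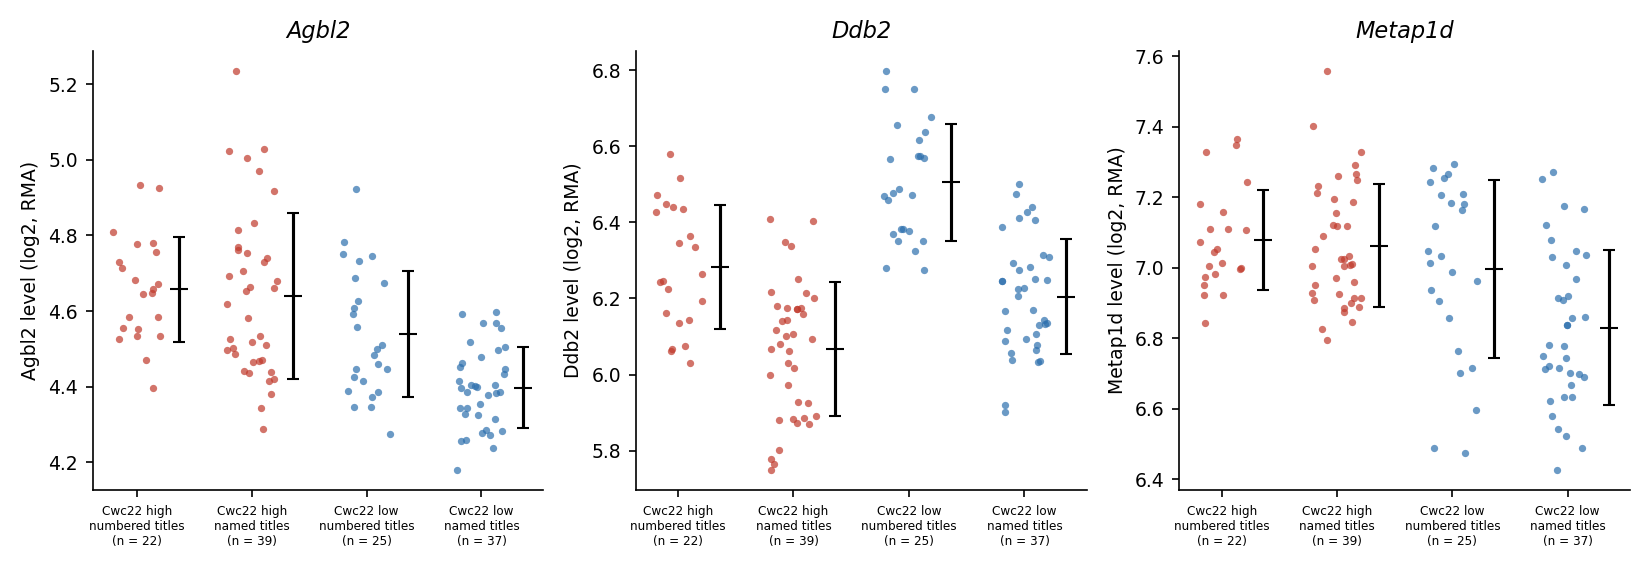
Log2 level of Agbl2, Ddb2 and Metap1d in each tumour by group and title form, with the mean and SD beside the points. The groups overlap in all 3 panels, with the difference of Agbl2 (0.24) and Metap1d (0.23) larger in named titles than in numbered titles (0.12 and 0.08) and that of Ddb2 larger in numbered titles (-0.22 against -0.14).

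Within the title forms, 2 genes passed the threshold in named titles (0.0100%), Agbl2 and Metap1d. In numbered titles limma called 0 genes (0.00%), with 660 at an unadjusted p under 0.05 (3.31%). Whether the difference itself depended on title form was tested with an interaction term, which called 0 of 19937 genes (lowest adjusted p = 0.548), with 512 at an unadjusted p under 0.05 (2.57%).

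The intervals bound how large a difference could have been missed. The 95% interval of a gene had a median half-width of 0.0681 on the log2 scale, and the median difference over all genes was 0.00. The interval lay within 0.2 of 0 for 17857 genes (89.6%) and within 0.5 for 19762 (99.1%). It reached past 1 for 13 genes. Among these, BC018473 had a difference of 1.76 (SE 0.59, 95% interval 0.584 to 2.94, adjusted p = 0.995), and Mup5, a major urinary protein, had -0.77 (95% interval -1.31 to -0.235, adjusted p = 0.995).

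The order of genes on chromosome 2 was not used to choose the groups. Positions in gene order were counted among the measured genes of chromosome 2 in RefSeq (GRCm38.p6), used for order alone. Metap1d lies 53 genes before Cwc22, Agbl2 263 genes after it and Ddb2 278 genes after it. Between Agbl2 and Ddb2 lie 14 measured genes, none of which was called (differences from -0.06 to 0.08), 2 of them at an unadjusted p under 0.05. These 14 include the transcription factor Spi1, with medians of 7.00 in high and 6.96 in low tumours, and the lysosomal phosphatase Acp2, with 8.59 and 8.50.

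The genes next to Cwc22 did not pass the threshold. Among the 10 nearest genes on each side, 0 of 20 were called (0.00%). At an unadjusted p under 0.05 there were 2 (10.0%), against 4.15% of all genes. Frzb, a secreted Wnt antagonist 10 genes after Cwc22, had medians of 5.30 in high and 5.21 in low tumours and a difference of 0.17 (SE 0.06, adjusted p = 0.995). Rbm45, an RNA-binding protein 10 genes before Cwc22, had medians of 8.64 and 8.60 and a difference of 0.09 (SE 0.04, adjusted p = 0.995).

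The genes adjoining Cwc22 on its 2 sides, Zfp385b and Gm14461, had differences of -0.08 (SE 0.06) and -0.01 (SE 0.03). The others of the nearest 20 lay between -0.10 (Itprid2) and 0.12 (Fkbp7). These included the ubiquitin-conjugating enzyme Ube2e3 (-0.02), the integrin Itga4 (0.07), the protein kinase activator Prkra (-0.01), the endoplasmic reticulum chaperone Dnajc10 (0.09), the phosphodiesterase Pde1a (0.10) and the giant muscle protein Ttn (0.00). The ranges of the 2 groups overlapped for each of them.

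Among 25 genes on each side, 0 of 50 were called (0.00%). At an unadjusted p under 0.05 there were 5 (10.0%), against 4.15% of all genes. These 5 were Rbm45, Frzb, Zfp804a (-0.08), Fam171b (0.15) and the coagulation inhibitor Tfpi (0.12). All 50 intervals in this window lay between -0.291 and 0.296. The difference of 2.58 for Cwc22 is no like measure, since its level set the groups. Among 100 genes on each side, 1 of 200 was called, which was Metap1d, and 17 had an unadjusted p under 0.05.

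Over the whole of chromosome 2, 3 of 1731 genes were called (0.173%), against 0.0150% of all genes. At an unadjusted p under 0.05 there were 88 (5.08%), against 4.15% of all genes. Of the 19 genes of the series with an unadjusted p under 0.001, 7 lay on chromosome 2 (0.404% of its genes, against 0.0953% of all genes). Besides the called genes these were Dcaf17, a substrate receptor of the Cul4 ubiquitin ligase 58 genes before Cwc22, with a difference of 0.12 (adjusted p = 0.311), the receptor kinase Tyro3 with -0.17 (adjusted p = 0.311), Vps39, a subunit of a lysosomal tethering complex, with -0.10 (adjusted p = 0.452), and the tRNA-modifying Urm1 with -0.12 (adjusted p = 0.731). On the other chromosomes no gene was called. The lowest adjusted p there was 0.311, for the folate transporter Slc46a1 (-0.27, SE 0.07) and for Prrg1 on the X chromosome (0.15, SE 0.04).

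**Figure D3:**
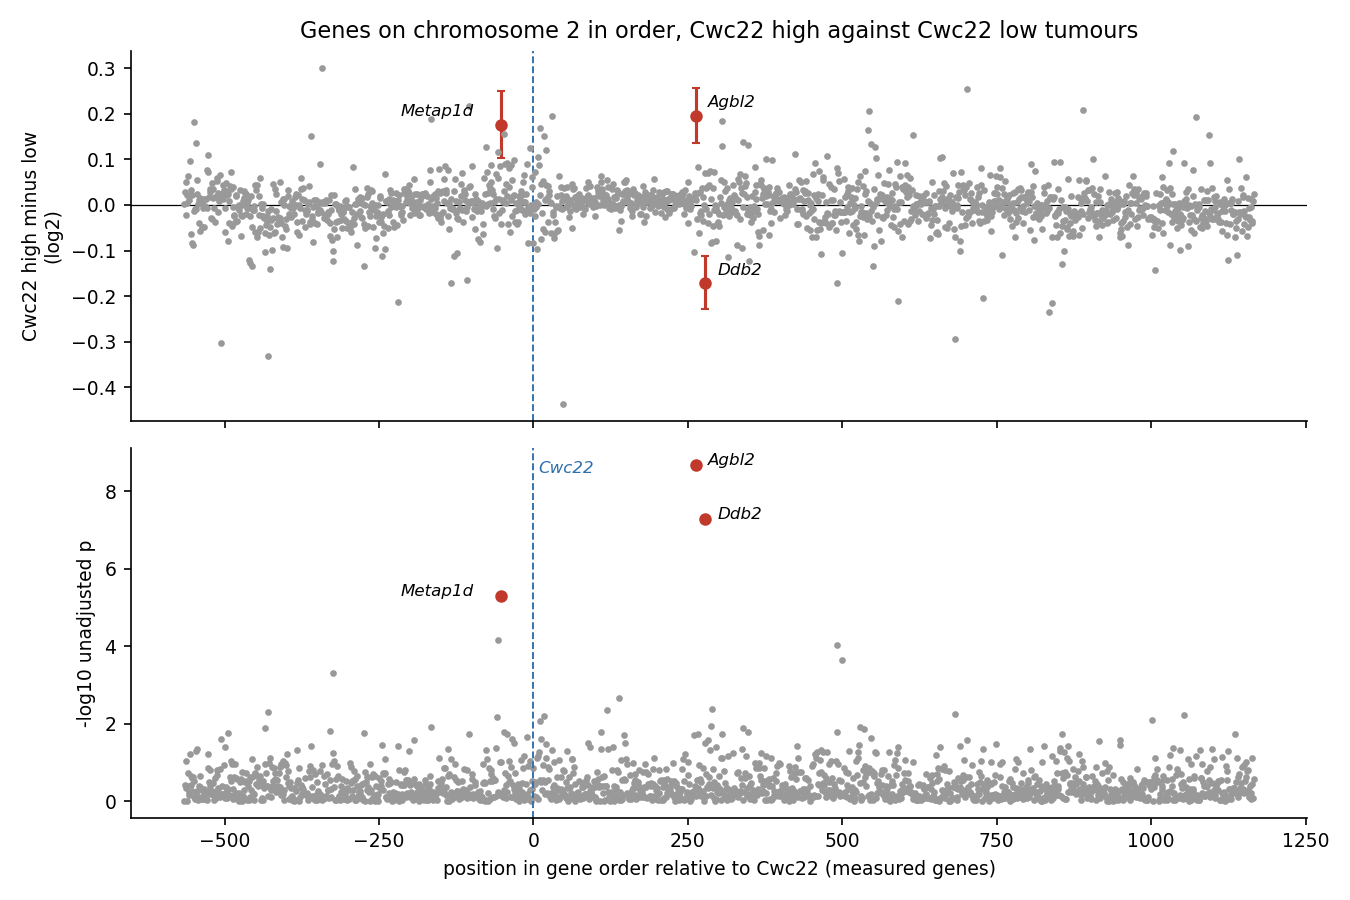
High minus low difference (log2, upper panel) and -log10 unadjusted p (lower panel) of each measured gene of chromosome 2, by its position in gene order from Cwc22 (dashed line). Red points are the 3 called genes, with 95% intervals in the upper panel: Metap1d lies 53 genes before Cwc22, and Agbl2 and Ddb2 lie 263 and 278 genes after it.

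The partners of Cwc22 were examined next. Of 11 measured genes of the exon junction complex and its periphery, 0 were called, 0 had an unadjusted p under 0.05, and the median difference was 0.02, against 0.00 over all genes. Eif4a3, the helicase that Cwc22 binds, ran from 7.76 over a median of 8.45 to 9.79 in high tumours and from 7.26 over 8.48 to 9.23 in low tumours. Its difference was 0.10 (SE 0.06, adjusted p = 0.995), the highest of the list. Further core members in the list had differences of 0.02 for Rbm8a and -0.01 for Casc3, and the splicing-associated periphery had 0.03 for Acin1 and -0.03 for Rnps1.

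Of 25 other spliceosome proteins of the complexes in which Cwc22 works, 0 were called, with a median difference of 0.02 and a range from -0.05 (Cwc25) to 0.06 (Cwc27). Every interval in this list lay between -0.131 and 0.136. Core members had differences of -0.01 for Prpf8 (medians of 10.62 in high and 10.53 in low tumours), -0.01 for Eftud2 and 0.03 for Snrnp200.

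Nonsense-mediated decay, which reads the exon junction complex, was covered by 11 factors and by 16 transcripts known to be degraded through it. No factor was called (median difference 0.00). The helicase Upf1 had 0.00 (SE 0.03), its partner Upf2 0.01 (SE 0.04), the kinase Smg1 0.04 (SE 0.03) and Smg9, a subunit of the complex of that kinase, -0.08 (SE 0.04). Among the 16 transcripts 0 were called, with a median of 0.03 and 13 of them above 0. At an unadjusted p under 0.05 there were 2 of the 16, against 4.15% of all genes. These were the host of small nucleolar RNAs Snhg5 (0.17, SE 0.06) and the splicing factor Tra2b (0.06, SE 0.03), both with an adjusted p of 0.995. Gas5 had 0.07 (SE 0.06) and the stress factor Atf4 -0.01 (SE 0.04).

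Lists of cell types and tumour programmes had no called gene either. The largest median was that of 10 interferon response genes, at 0.39 with all 10 above 0, and 7 of the 10 had an unadjusted p under 0.05, higher in Cwc22 high tumours, against 4.15% of all genes in either direction. Ifit3, an RNA-binding effector of the response, ran from 5.42 over a median of 8.22 to 11.36 in high tumours and from 5.44 over 7.56 to 10.34 in low tumours. The ranges covered each other almost whole. Its difference was 0.62 (SE 0.24, 95% interval 0.156 to 1.09, adjusted p = 0.995), with 0.73 in named and 0.45 in numbered titles.

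Other interferon genes had differences of 0.48 for the deubiquitinase-like Usp18 (SE 0.24), 0.44 for Oasl2 (SE 0.20), 0.35 for Ifit2 (SE 0.12), 0.30 for the transcription factor Irf7 (SE 0.20) and 0.07 for Mx1 (SE 0.12). These genes share a response and are not independent of one another. Averaged over the list after centring, tumours ran from -1.65 over a median of 0.218 to 2.42 in the high group and from -1.58 over -0.279 to 1.80 in the low group.

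Of 9 myoepithelial genes, 3 had an unadjusted p under 0.05, against 4.15% of all genes, and none was called. These were the contractile genes Cnn1 (0.42, SE 0.16), Myh11 (0.24, SE 0.12) and Acta2 (0.23, SE 0.11). The myosin kinase Mylk had 0.10 (SE 0.05) and the keratins Krt5 and Krt14 had 0.06 (SE 0.19) and -0.18 (SE 0.16). All 9 keratinocyte genes lay below 0 with a median of -0.18. Lor, a protein of the cornified envelope, was the only one of them with an unadjusted p under 0.05 (-0.28, SE 0.12, adjusted p = 0.995), and its highest value was 5.53 in high and 9.07 in low tumours against medians of 4.66 and 4.74. Milk genes had a median of 0.18 with wide errors, such as 0.46 (SE 0.39) for the casein Csn2.

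Medians of the remaining lists lay between -0.10 for 12 fibroblast genes and 0.02 for 10 genes of T and NK cells. B cells stood at -0.05, macrophages at -0.02, endothelium at 0.02, luminal epithelium at -0.05, proliferation at 0.01 and hypoxia at 0.02. As in the keratinocyte list, all 7 B cell genes and all 10 luminal epithelium genes lay below 0. Of 4 housekeeping genes, Actb had -0.01 (SE 0.01) and Ppia -0.04 (SE 0.02, adjusted p = 0.995).

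Genes known from earlier work on these arrays to have separate levels between tumours did not pass the threshold in this comparison. Of these 6 genes, 1 was higher (BC018473) and 1 lower (Scgb2b27) at an unadjusted p under 0.05, against 4.15% of all genes. The differences were 0.31 (SE 0.29) for D17H6S56E-5, -0.45 (SE 0.32) for the class II antigen chain H2-Ea, -0.66 (SE 0.21) for the secretoglobin Scgb2b27, -0.06 (SE 0.22) for Fndc10 and -0.05 (SE 0.16) for Ifi202b. BC018473 had medians of 7.36 in high and 5.28 in low tumours, and its values in both groups reached from below 5 to above 12.

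**Figure D4:**
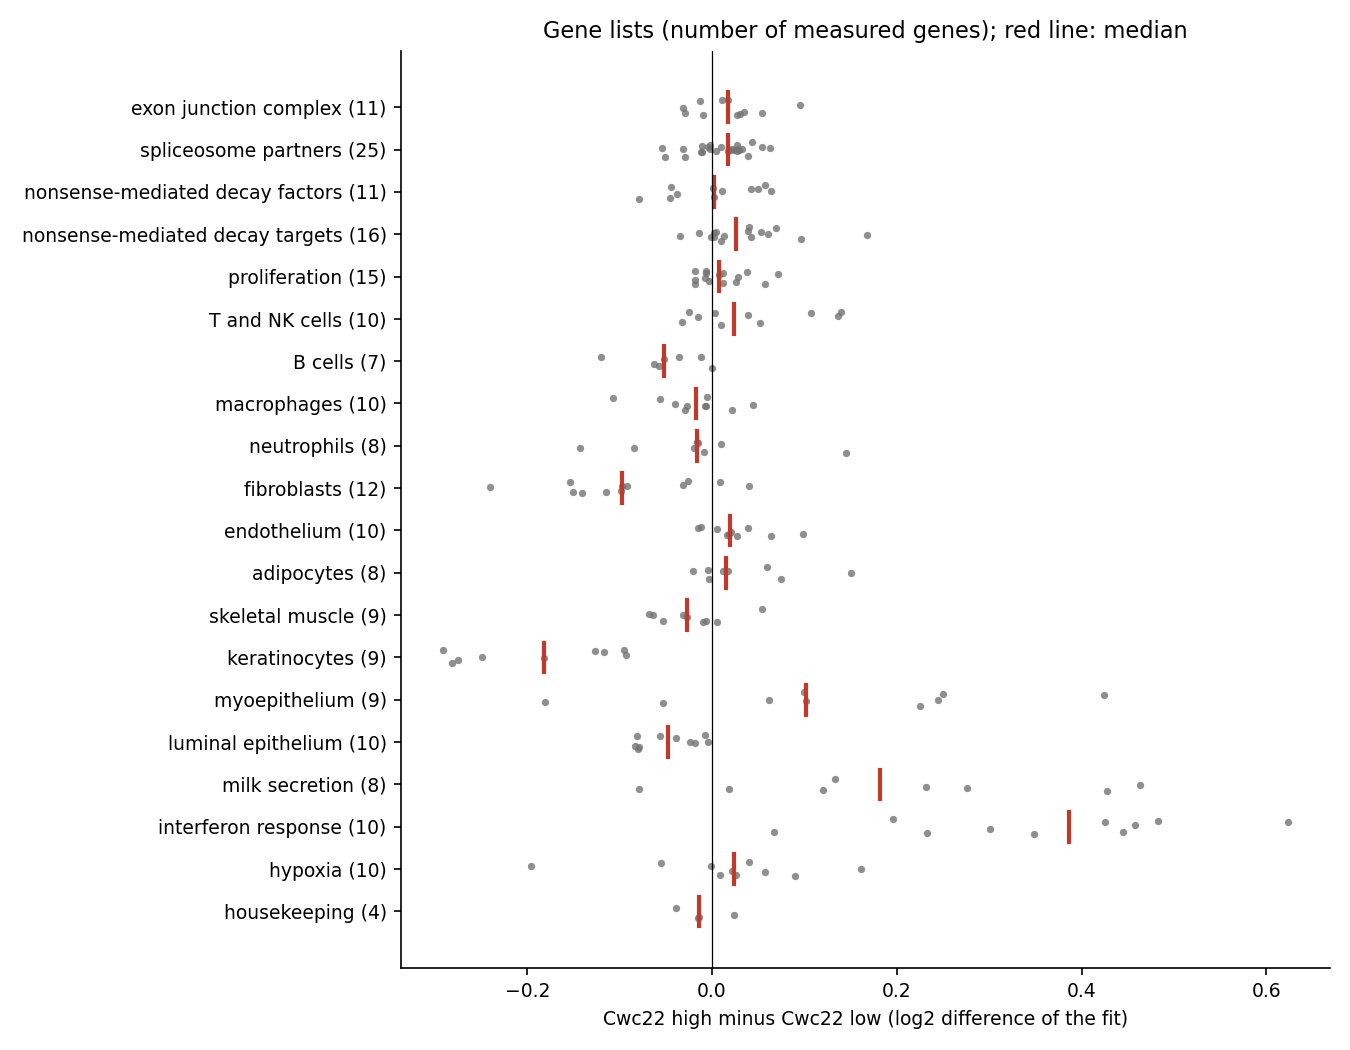
High minus low difference (log2) of each measured gene of 20 lists, one row per list with its number of genes in brackets, and the median as a red line. The interferon response lies highest with a median of 0.39, and the exon junction complex, spliceosome and decay lists stay near 0. No gene shown passed the threshold.

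The probesets outside the gene table, which have several gene symbols or none, were tested in the same way. Of 13767, 2 passed the threshold (0.0145%) and 483 had an unadjusted p under 0.05 (3.51%). Both were unnamed and higher in Cwc22 high tumours, by 1.45 (SE 0.08, n = 61 high and 62 low) and 0.34 (SE 0.05) on the log2 scale, and no gene is given for them in the tables used here.

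No difference in array quality between the groups was detected. The median level over named probesets differed by -0.00472 within title forms (permutation test, 100000 resamples, 2-sided, p = 0.472), and the mean correlation of an array with the other arrays by -0.00086 (p = 0.323).

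Cwc22 also varied inside each group, with an SD within title forms of 0.314 in high and 0.242 in low tumours, and the genes that followed it there were examined after the data had been seen. Within high tumours the slope on Cwc22 passed the threshold for 1441 genes (7.23%), of which 733 rose and 708 fell with Cwc22. Within low tumours it did so for 1366 genes (6.85%), 718 rising and 648 falling. Both groups called 241 genes (1.21%), which is 16.7% of the genes called in high and 17.6% of those called in low tumours. All 241 had the same sign in both groups, 144 rising and 97 falling. Over all tumours, with the group as a further term, the slope passed for 4188 genes (21.0%). A test of the difference between the slopes of the 2 groups called 0 genes (0.00%), with 1715 at an unadjusted p under 0.05.

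Cwc22 moved with array quality inside the high group. Its correlation with the array median was r = -0.360 over 61 tumours (2-sided permutation p = 0.00515, and 0.0206 after adjustment over 4 relations), with rho = -0.283 (permutation p = 0.0276 and 0.11 after adjustment). It was -0.435 in named and -0.111 in numbered titles. Leaving out the 2 tumours with the most extreme Cwc22 levels gave r = -0.266. For the mean correlation of the array with the others, r was -0.328 (permutation p = 0.0128 and 0.0255 after adjustment), whereas rho was -0.0754 (permutation p = 0.561 and 0.697 after adjustment). This relation rested on the 2 most extreme tumours, without which r was -0.145, and r was -0.395 in named and 0.113 in numbered titles. In low tumours the array median gave r = -0.227 (permutation p = 0.0751 and 0.10 after adjustment) and the mean correlation gave r = -0.106 (permutation p = 0.408 before and after adjustment). The values of rho there were -0.211 (permutation p = 0.0986 and 0.197 after adjustment) for the array median and -0.0503 (permutation p = 0.697) for the mean correlation. Without the 2 most extreme low tumours r was -0.240 and -0.132. With both quality measures as covariates, 411 genes passed in high (2.06%) and 810 in low tumours (4.06%), and 28 of the 241 shared genes were called in both groups.

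Among the 241 genes, the slopes that were steepest over both groups belonged to Malat1, a nuclear long noncoding RNA, which rose by 0.70 (SE 0.14, adjusted p = 0.00226) per log2 unit of Cwc22 in high and by 0.87 (SE 0.21, adjusted p = 0.00698) in low tumours. Cd55, a complement regulator, rose by 0.74 in high and 0.56 in low tumours, and Phc3, a Polycomb protein, by 0.53 and 0.70. The splicing factor Prpf39 rose by 0.66 (SE 0.09, adjusted p = 3.02e-06) and 0.47 (SE 0.14, adjusted p = 0.0294), and the deubiquitinase Cyld by 0.56 and 0.52. Tcf7l1, a Wnt pathway transcription factor, had slopes of -0.51 in high and -0.82 in low tumours, and Arnt2, a partner of basic helix-loop-helix factors, had -0.55 and -0.80. The detoxifying enzyme Gstp1 had slopes of -0.40 and -0.62 and Nrtn, a neurotrophic factor, -0.50 and -0.59. With the quality covariates, Malat1, Cyld and Arnt2 still passed in both groups. The others named here passed in one group only, since the slope was lost in low tumours for Cd55 (adjusted p = 0.0517), Phc3 (adjusted p = 0.110) and Prpf39 (adjusted p = 0.0989), and in high tumours for Tcf7l1 (adjusted p = 0.0967), Gstp1 (adjusted p = 0.0817) and Nrtn (adjusted p = 0.134).

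**Figure D5:**
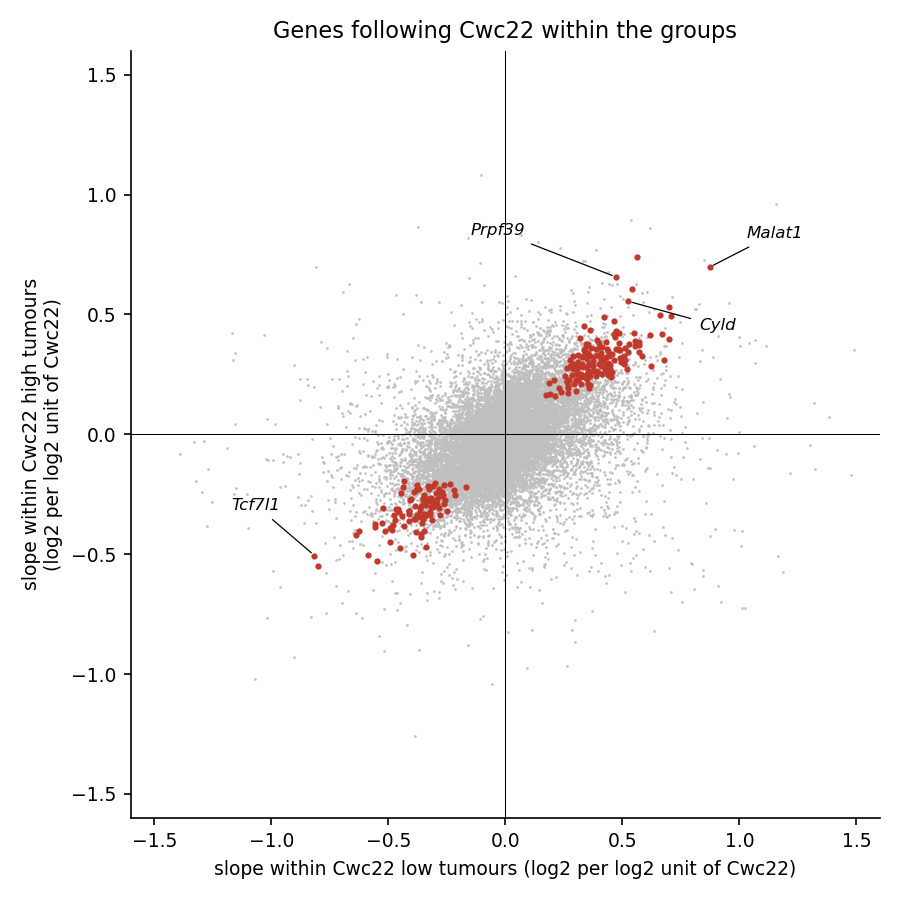
Slope of each gene on Cwc22 within Cwc22 high tumours (vertical axis) and within Cwc22 low tumours (horizontal axis), both as log2 level per log2 unit of Cwc22. The 241 genes called in both groups are red and have the same sign in both. The axes end at 1.6 on each side, outside which 8 genes lie.

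Few genes of the spliceosome and exon junction complex lists had slopes past the threshold. Of the 25 spliceosome proteins, 2 rose and 0 fell within high tumours and 1 rose and 1 fell within low tumours, near the shares over all genes of 7.23% in high and 6.85% in low tumours. Bcas2, a member of the Prp19 complex, had slopes of 0.33 (adjusted p = 0.0299) in high and 0.44 (adjusted p = 0.0289) in low tumours, and with the quality covariates 0.21 (adjusted p = 0.229) and 0.31 (adjusted p = 0.139). Slu7, a second-step splicing factor, passed in high tumours alone (0.26, adjusted p = 0.0225, and 0.116 with the quality covariates). Eftud2, a GTPase of the U5 particle, passed in low tumours alone (-0.39, adjusted p = 0.0182, and 0.0222 with the quality covariates). Of the 11 exon junction complex genes, 0 passed within either group.

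Of the 11 decay factors, 1 rose and 1 fell within high tumours, where 7.23% of all genes were called. Within low tumours, where 6.85% of all genes were called, 1 rose and 2 fell. Upf2 had slopes of 0.34 (SE 0.09, adjusted p = 0.0138) in high and 0.57 (SE 0.09, adjusted p = 0.000181) in low tumours, and with the quality covariates 0.22 (adjusted p = 0.147) and 0.51 (adjusted p = 0.00164). Smg9 had -0.31 (adjusted p = 0.0300) and -0.47 (adjusted p = 0.0130), and with the quality covariates -0.21 (adjusted p = 0.15) and -0.45 (adjusted p = 0.0286). The helicase Dhx34 passed in low tumours alone (-0.26, adjusted p = 0.0430, and 0.139 with the quality covariates). Of the 16 transcripts known to be degraded through this pathway, 1 rose within high tumours (Srsf6) and 1 within low tumours (Gas5). The counts of the 16 transcripts are near the shares over all genes, whereas those of the 11 decay factors, a short list, lie above them.

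The called genes of chromosome 2 did not take the direction of their group difference in every case. Ddb2, which was lower in Cwc22 high tumours, rose with Cwc22 inside the high group, by 0.25 (SE 0.07, adjusted p = 0.0151) per log2 unit, and had a slope of 0.07 (SE 0.08, adjusted p = 0.664) inside the low group. Metap1d rose by 0.24 (SE 0.06, adjusted p = 0.0136) inside the high group and had -0.01 (SE 0.12, adjusted p = 0.981) inside the low group. With the quality covariates the slopes in the high group were 0.27 (adjusted p = 0.0345) for Ddb2 and 0.24 (adjusted p = 0.0511) for Metap1d. Agbl2 had slopes of 0.00 (SE 0.08) and -0.05 (SE 0.07), neither past the threshold. The difference between the 2 slopes did not pass for any of these genes (adjusted p = 0.646 for Ddb2, 0.602 for Metap1d and 0.931 for Agbl2).

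Of the 50 genes nearest to Cwc22, 0 followed it within high tumours, against 7.23% of all genes. Within low tumours, where 6.85% of all genes did, 5 rose (the peptide receptor subunit Calcrl, the phosphatase Dusp19, Pde1a, the ciliary transport protein Ttc30a1 and the zinc finger protein Zc3h15) and 1 fell (Hoxd3, a homeobox factor), with slopes from -0.28 to 0.60. With the quality covariates Ttc30a1 (adjusted p = 0.0633) and Zc3h15 (adjusted p = 0.0695) no longer passed.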

How the data were processed

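RNA of whole mammary tumours was hybridised to Affymetrix Mouse Gene 1.0 ST arrays. The deposited values are log2 levels, and the authors computed them with RMA, which corrects background, equalises quantiles between arrays and summarises probes into probesets. The sources used here do not give its version, the build of the array annotation or which arrays were normalized together.

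Of 35556 probesets, 21789 had 1 gene symbol in the platform table, 1621 had several and 12146 none, and 21698 of the first were matched to RefSeq by Entrez number. They gave 19938 genes, with the probeset of highest mean used for the 999 genes with several. Cwc22 was set aside.

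High and low tumours were compared by 2-sided moderated tests in limma 3.58.1 (R 4.3.3), using lmFit and eBayes with a mean-variance trend. Adjusted p-values are from this tool, by Benjamini-Hochberg over 19937 genes, with a threshold of 0.05. The script was tested on simulated data. P-values measure the spread between animals of 1 cross, and the number of arrays limits precision.

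The groups, lists and alternatives were chosen with earlier results of these data known, and the slopes within groups were added after the data had been seen. Named genes were the 10 nearest on each side of Cwc22, other called genes among the 25 on each side, called genes of either sign with the same sign in both title forms, list members and genes with separate levels. Genes outside this rule (those with a low unadjusted p or a wide interval, those between Agbl2 and Ddb2, and those with slopes) were chosen after their values were seen.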

Additional observations from a re-analysis of the deposited data

Results flagged for a closer look

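Probesets with several gene symbols or with none were outside the gene comparison, and a signal appeared there in 2 of 13767 (0.0145%), with 483 at an unadjusted p under 0.05 (3.51%). The unnamed probeset 10340617 ran from 8.49 over a median of 9.41 to 10.99 in Cwc22 high tumours and from 7.40 over 8.10 to 9.80 in Cwc22 low tumours. It differed by 1.45 (SE 0.08, 2.73-fold, limma adjusted p = 4.2e-32), and 55 of the 62 low tumours lay below every high tumour. Its means were 9.38 in high and 8.14 in low tumours of numbered titles, and 9.66 and 8.08 in named titles.

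The unnamed probeset 10375229 ran from 5.60 over 6.02 to 7.09 in high tumours and from 4.92 over 5.71 to 6.56 in low tumours. It differed by 0.34 (SE 0.05, 1.26-fold, limma adjusted p = 4.81e-05). The difference of the first probeset was larger than that of any of the 3 called genes. Neither probeset has a gene or a position in the tables used here.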

How the results depend on the processing

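The count of 3 genes was computed again under 14 settings. A cut at the widest gap in centred Cwc22 (-0.0967) fell in the empty range from -0.629 to 0.436 and left the groups unchanged. Leaving out tumours within 0.25 of the cut removed no tumour. Both settings therefore repeat the main comparison, and the calls they kept are no further evidence of stability. The numbers of settings given below include them. A cut at the median within title forms moved low tumour 14125 (8.92) and high tumour 14001 (10.08) into the other group, across the empty range. The count of called genes was highest, at 5, with the first 5 principal components as covariates, which added Dcaf17 (0.11, adjusted p = 0.004) and Slc46a1 (-0.24, adjusted p = 0.0363). It fell to 0 in the numbered titles alone, where fewer tumours were compared, and to 2 in the named titles alone. The settings below that lost Metap1d, removed Agbl2 or added Prrg1 also changed it. The count among the 100 genes on each side of Cwc22 was 0 with a cut at the median, with the array median as a covariate, with the left-out animals added and in numbered titles alone, and 2 with the principal components. On chromosome 2 it was 0 in numbered titles alone. Metap1d was called in 10 of 14 settings, with 0.17 for the cut at the median (adjusted p = 0.11) and for the array median (adjusted p = 0.0668), and 0.16 with the left-out animals (adjusted p = 0.271). Agbl2 was called in 12 of the 13 settings that kept it, since a filter on mean levels under 5 removed it, and Ddb2 in 12 of 14, with the same sign throughout. A slope per log2 unit of Cwc22 over all tumours added Prrg1 (0.07, adjusted p = 0.0339). Of 1380 values for 99 other named genes, 86 changed sign and 0 became called. With both quality measures as covariates, the genes following Cwc22 numbered 411 within high tumours, 810 within low tumours and 2399 over both, against 4188 (21.0%) without them. Apart from the constructions named, the causes were not tested. No paired analysis was possible because the labels put all tumours into 1 group.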
